A study of Mus musculus with 4 samples.

Results

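The circadian clock genes and their outputs were examined here as 10 genes chosen by name, Dbp, Tef, Per1, Per2, Per3, Nr1d2, Arntl (also called Bmal1), Clock, Npas2 and Cry1. All 10 were found, as 19 of the 22690 probe sets on the array, among 12394 genes that had a probe set with a single symbol. Whole-kidney RNA came from C57BL/6 mice, and every group is labelled as male and 17 weeks of age. Saline+Water and Saline+Captopril are the uninflamed groups and GN+Water and GN+Captopril the inflamed ones, each of these 4 described as 6 mice and each represented by 1 array, and the labels do not say whether RNA of several mice was pooled. GN stands for glomerulonephritis, an inflammation of the filtering units of the kidney. It was induced with horse spleen apoferritin, injected into the peritoneum at 10 mg on 5 days of each week, and with 100 µg of Salmonella minnesota lipopolysaccharide as adjuvant at 3 injections a week, for 6 weeks from an age of about 8 weeks. The saline groups got 0.15 M NaCl by the same route, and the captopril groups drank captopril, an inhibitor of angiotensin converting enzyme, at 100 mg/kg/day. Kidneys were taken after 9 weeks. With 1 array per group no difference below has an error or a replicate check, and none was tested. The hour of day at which each group was killed is not in the labels used here, and its part in any difference was not tested.

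The mammalian clock is a feedback loop of transcription. The proteins of Arntl and of Clock or its relative Npas2 form the positive limb, which binds E-boxes and switches on the period genes (Per1, Per2, Per3), the cryptochromes (Cry1, Cry2) and the nuclear receptors Nr1d1 and Nr1d2 (REV-ERB alpha and beta). The period and cryptochrome proteins repress the positive limb, and the REV-ERB proteins repress Arntl through RORE sites. Dbp, Tef and Hlf encode bZIP transcription factors that carry the rhythm to output genes through D-boxes, which Nfil3 opposes. In the kidney, as in other peripheral organs, Arntl messenger RNA is known to peak at about the opposite time of day from Dbp and Nr1d1.

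Promoter windows show which of these elements lie close to the members' start sites. The windows run from 250 bases before to 50 bases after an annotated start and come from RefSeq, assembly GRCm38.p6. They were found for 9 of the 10 members, as 14 windows, and Per2 had no entry. Both strands were searched for CACGTG (E-box), TTANGTAA (D-box) and AGGTCA (the core of the RORE). Of 32851 windows of the same length in the table, 7.15% hold the E-box, 2.32% the D-box and 16.3% the RORE core. Among the members 3 hold an E-box (Tef, Per1, Cry1), 1 a D-box (Per3) and 4 the RORE core (Clock, Arntl, Per1, Nr1d2), and no matches overlap within a window. Counted by window, as the shares are, these were 4, 1 and 4 of the 14 windows. The stretches below are shown because they hold the letters of the E-box, which the positive limb binds, and of the D-box, which the output factors bind, and the RORE core next to the Arntl start, with the matched letters in capitals.
Per3, 2 D-boxes (chr4:151044771-151044915, minus strand): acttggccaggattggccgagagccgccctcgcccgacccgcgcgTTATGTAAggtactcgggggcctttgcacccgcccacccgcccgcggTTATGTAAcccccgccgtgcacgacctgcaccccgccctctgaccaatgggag
Tef, E-box 138 bases before the start (chr15:81811231-81811326, plus strand): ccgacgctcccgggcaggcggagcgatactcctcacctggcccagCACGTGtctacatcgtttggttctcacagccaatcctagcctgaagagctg
Per1, E-box 166 bases before the start (chr11:69098738-69098833, plus strand): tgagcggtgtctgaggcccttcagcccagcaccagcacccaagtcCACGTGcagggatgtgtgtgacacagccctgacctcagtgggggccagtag
Cry1, E-box 60 bases before the start (chr10:85185064-85185159, minus strand): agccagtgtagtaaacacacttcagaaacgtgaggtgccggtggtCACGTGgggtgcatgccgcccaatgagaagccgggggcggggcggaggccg
Arntl, RORE core after the start (chr7:113207530-113207559, plus strand): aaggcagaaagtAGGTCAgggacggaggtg
Per3 is the member whose window holds 2 matches of the element that Dbp and Tef proteins bind. A match is only a string of letters here, since no binding was measured, and a window without a match says nothing about the factor.

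The arrays differ in ways that bear on every comparison. Xist, transcribed from the inactive X chromosome of females, stood at 8.97 on the log2 scale on the array labelled GN+Water and at 5.02 to 5.21 elsewhere. Eif2s3y, from the Y chromosome, was at 3.43 there and at 8.02 to 8.29 on the others. This goes against the male label, so the name "the array labelled GN+Water" is kept throughout. On Saline+Water the median of 18 spike-in control probe sets was 10.8, against 7.46 to 7.89, and its correlation over all probe sets with any other array was 0.945 to 0.966, while the remaining arrays correlated at 0.982 to 0.994. Kidney markers had mean log2 levels of 11.5 to 11.7 over 8 genes on every array, but single genes had ranges from 0.17 (Cdh16) to 1.14 (Slc12a1). On the array labelled GN+Water 3 of the 8 were higher than on Saline+Water and 5 lower. Slc12a1 was 2.21-fold and Aqp2 2.03-fold higher there, and Nphs1 1.49-fold lower. Leukocyte markers (8 genes) had means of 7.47 and 7.59 on the saline arrays, 9.03 on GN+Captopril and 9.74 on the array labelled GN+Water. In the comparison of GN+Captopril with Saline+Captopril 4 of these 8 were at least 2-fold higher, as were 2 of 4 adipocyte genes and 1 of 5 adrenal genes, against 0.719% of genes past the expression filter defined below and 0.613% of all genes. The mean adipocyte level ran from 6.71 on Saline+Water to 7.58 on GN+Captopril, and the adrenal mean from 5.59 to 6.07, highest on GN+Captopril. Hsd3b1, the adrenal gene past 2-fold, was at 7.39 there against 5.83 to 6.01 elsewhere. Cyp21a1 was highest on Saline+Water, at 7.24 against 6.14 on GN+Captopril. Relative to Saline+Captopril 3 of the 5 adrenal genes were higher on GN+Captopril and 2 lower. Genes listed as liver markers (4, albumin among them) had a mean of 9.36 on the array labelled GN+Water and of 10.1 to 10.7 elsewhere. Cyp2e1 had the widest range of the 4, at 10.75 there against 13.25 to 13.53 on the others, and the largest part in the lower mean. On those other arrays it was brighter than the kidney marker mean of 11.5 to 11.7, so whether it stands for liver cells in this tissue is not known. Ttr was also lowest there, at 12.08 against 12.39 to 13.02. Apoa1, at 6.55 there, was barely under its 6.64 on Saline+Water. Albumin was not lowest there, at 8.08 against 7.48 on Saline+Water, its lowest array. Relative to Saline+Captopril 1 of 4 was higher on GN+Captopril, and relative to the array labelled GN+Water 4 of 4 were. Whether these lists track cell content here was not tested. Nor was the part of cell content, or of the sex-linked difference, in the values of the clock genes.

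A gene's value is the log2 level of its brightest probe set by mean over the arrays. The 40th percentile of all probe sets, a level of 6.27, served as an expression filter for the genes counted as background. Dbp, Tef, Nr1d2, Per1, Arntl and Clock passed it, while Per2, Per3, Npas2 and Cry1 lay below it, and all 10 are described. Near background means no higher than the 90th percentile of an array's 27 negative controls, which was 4.36 to 4.81.

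**Figure D1:**
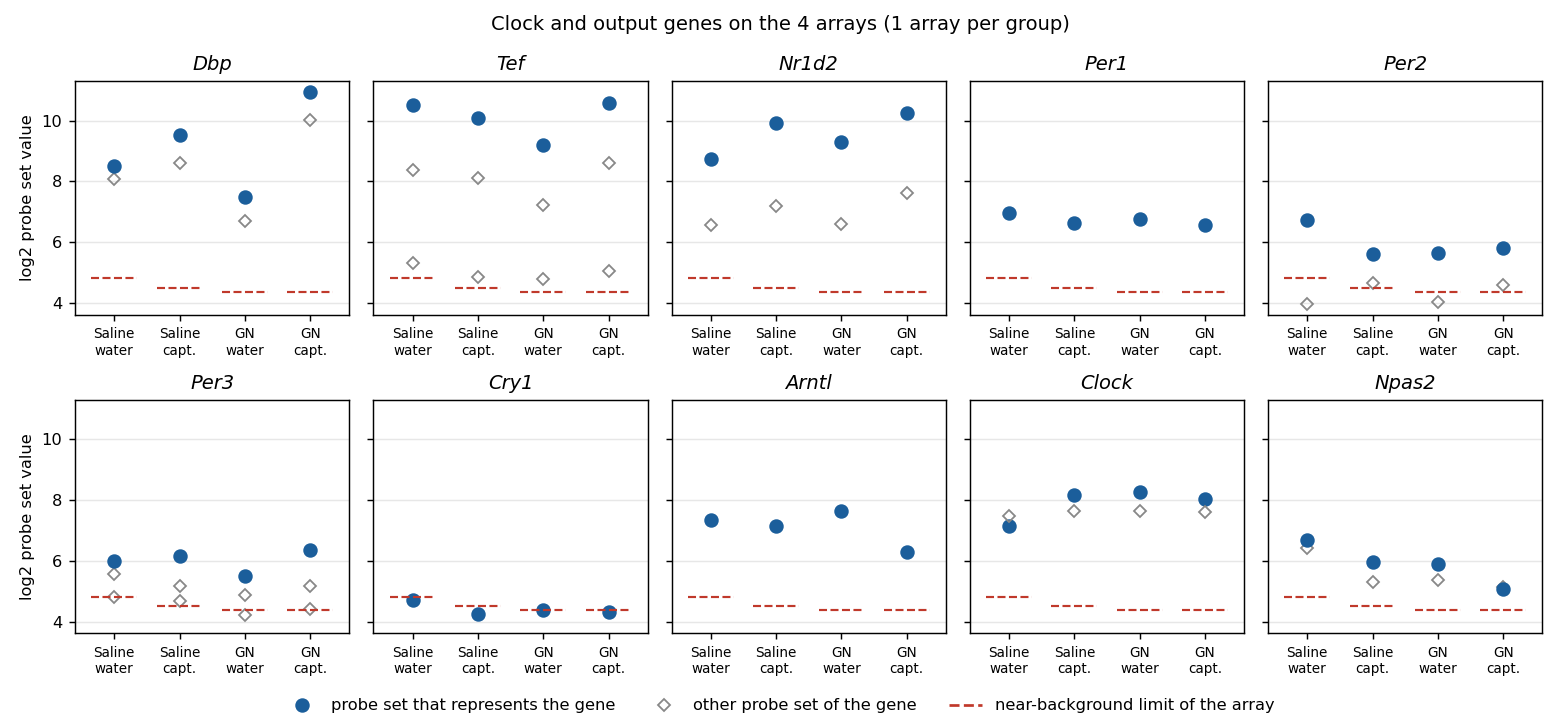
Log2 values of every probe set of the 10 genes (y axis) on the 4 arrays (x axis, 1 array per group). Filled circles are the probe set that represents the gene, open diamonds its other probe sets, and red dashes the near-background limit of each array. Dbp spans 7.48 to 10.96 between the GN arrays, and Cry1 lies at the limit.

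Dbp, the output factor that follows the clock most steeply in many tissues, had the widest range of the members. Its level was 8.51 on Saline+Water, 9.51 on Saline+Captopril, 10.96 on GN+Captopril and 7.48 on the array labelled GN+Water. The second Dbp probe set gave 8.09, 8.60, 10.04 and 6.71 in the same order. In bulk kidney RNA a gene expressed in fewer cells and a gene with less RNA per cell cannot be told apart. Both probe sets put GN+Captopril highest and the array labelled GN+Water lowest. The range of 3.48 was exceeded by 34 of the 8207 genes past the filter (0.414%), whose median range was 0.51.

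Tef, a relative of Dbp that binds the same element, stood at 10.51 on Saline+Water, 10.10 on Saline+Captopril, 10.57 on GN+Captopril and 9.19 on the array labelled GN+Water. It was low on the array labelled GN+Water only, and all 3 of its probe sets had their lowest value there. Its highest values, on GN+Captopril and Saline+Water, were close to each other.

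Nr1d2, the REV-ERB beta repressor of Arntl, was at 8.73, 9.94, 10.24 and 9.29 in that order of the arrays. The captopril arrays were the 2 highest, and its second probe set kept that order with 6.56, 7.19, 7.62 and 6.60.

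The period genes, which encode repressors, varied less. Per3 was at 6.00, 6.15, 6.37 and 5.50 in the same array order, lowest on the array labelled GN+Water and highest on GN+Captopril. Its other probe sets, at 4.21 to 5.56, were also lowest on that array but highest on Saline+Water. Per2 was at 6.74 on Saline+Water and between 5.63 and 5.81 elsewhere, but its second probe set, at 3.96 to 4.67, was near background on Saline+Water and on the array labelled GN+Water. Per1, which has 1 probe set, had a range of 0.41, from 6.57 on GN+Captopril to 6.97 on Saline+Water, and 60.5% of the genes past the filter had a larger one. Cry1, a cryptochrome repressor, lay at 4.25 to 4.70, near background on every array except the one labelled GN+Water, where it was at 4.39 against a limit of 4.37, so its order has no meaning.

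In the positive limb, Arntl was at 7.36 on Saline+Water, 7.13 on Saline+Captopril, 6.30 on GN+Captopril and 7.64 on the array labelled GN+Water. GN+Captopril stands below the other 3 arrays, which lie within 0.52 of each other. Npas2 was at 6.69, 5.97, 5.08 and 5.91, and was likewise lowest on GN+Captopril in both probe sets. Clock stood at 7.15 on Saline+Water in its brighter probe set, with 8.02 to 8.27 on the others, whereas the second probe set ran only from 7.48 to 7.65. Both Clock probe sets were lowest on Saline+Water, by very different amounts.

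Ranked by level, the arrays fell in exactly opposite order for Dbp and Arntl. Arntl ran from the array labelled GN+Water through Saline+Water and Saline+Captopril down to GN+Captopril, and Dbp ran the other way, in both of its probe sets. Of the 6 pairs of arrays, 6 were ordered against Arntl for Dbp and for Per3, 5 for Tef and for Nr1d2, 3 for Per2, 2 for Cry1 and 1 for Per1. Per3 did so in 1 of its 3 probe sets. Among the genes past the filter 2.9% had all 6 pairs against Arntl and 12.7% at least 5. Over all genes, with those below the filter such as Per3, the shares were 2.14% and 9.52%. The count of array orders was chosen after the values were seen, so these shares only describe. In the marker lists Cyp2e1, 1 of the 4 genes listed for liver, had the full opposite order, and 0 of the kidney, leukocyte, adipocyte, adrenal and sex-linked genes did. At least 5 pairs were against Arntl for 3 of 4 sex-linked, 2 of 4 liver and 1 of 5 adrenal genes. For the kidney, leukocyte and adipocyte genes that count was 0. With 4 arrays no correlation is given.

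**Figure D2:**
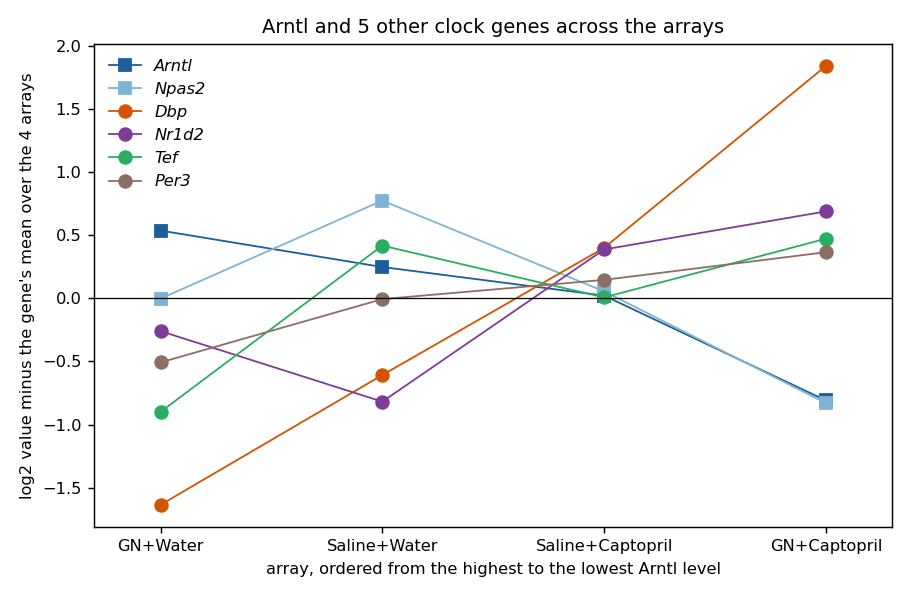
Log2 value of 6 clock genes minus the gene's mean over the 4 arrays (y axis), with the arrays ordered by falling Arntl level (x axis); squares are positive limb genes, circles are negative limb or output genes, and lines only join the points of a gene. Dbp climbs from left to right as Arntl declines, while Tef and Nr1d2 each depart from that order at Saline+Water. Per1, Per2, Cry1 and Clock are not drawn, and only 1, 3, 2 and 2 of their 6 array pairs were ordered against Arntl.

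The comparison of GN+Captopril with Saline+Captopril asks how GN kidneys differed from saline kidneys in mice on the drug, and it uses neither of the arrays that stand apart in sex-linked or spike-in transcripts. Dbp was 2.72-fold higher on GN+Captopril, and Arntl was 1.78-fold and Npas2 1.85-fold lower. Dbp was the only member past 2-fold, against 0.743% of 8207 genes past the filter and 0.637% of all 12394 genes. The spread across genes was narrow, with 95% of log2 differences between -0.30 and 0.48. Of the genes past the filter, 26 were further up than Dbp, whose difference was 1.44 in each probe set, and 3 were further down than Arntl, at -0.83. Npas2 was at -0.89 in the brighter probe set and at -0.19 in the other.

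Of the 7 negative limb and output genes, 6 differed in the direction opposite to Arntl (all but Per1), where 47.8% of genes past the filter and 41.2% of all genes were higher. The 6 include Cry1, near background on both arrays, and without it the count was 5. Most of these differences were small. Apart from Dbp they were 0.47 for Tef, 0.30 for Nr1d2, 0.22 for Per3, 0.18 for Per2 and 0.051 for Cry1. Dbp alone reached 1.5-fold in that direction, as did 1.85% of genes past the filter and 1.65% of all genes. All 3 Tef and both Nr1d2 probe sets were higher, but 1 of 3 for Per3 and 1 of 2 for Per2. Clock, at -0.13, lay on the same side as Arntl and Npas2. The median of the negative limb and output genes was 0.22 and that of the positive limb -0.83, a gap of 1.05. Over all 10 members the median was 0.11, against 0.00 for genes past the filter.

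The comparison of GN+Captopril with the array labelled GN+Water asks what captopril changed in GN kidneys. Here the members stood furthest apart. Dbp was 11.2-fold higher on GN+Captopril, Tef 2.59-fold, Nr1d2 1.93-fold and Per3 1.83-fold, and Arntl was 2.54-fold and Npas2 1.77-fold lower. The second Nr1d2 probe set gave a log2 difference of 1.02, but the lowest of the 3 Per3 probe sets gave 0.22 and the second of Npas2 -0.24. With probe sets averaged the log2 differences of Per3 and Npas2 were 0.47 and -0.53. Sex-linked transcripts differ between the same arrays, with Xist 15.4-fold lower on GN+Captopril, and this comparison cannot be made without the array that goes against its label.

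At least 2-fold higher were 2 of 10 members (Dbp and Tef), against 1.39% of genes past the filter and 0.96% of all genes. At least 2-fold lower was 1 (Arntl), against 1.12% and 0.96%. Of genes past the filter 12 were further up than Dbp, 60 further up than Tef and 45 further down than Arntl. Of the 7 negative limb and output genes, 5 were opposite to Arntl (all but Per1 and Cry1) and 4 of them by at least 1.5-fold, where 50.7% of genes past the filter (45% of all genes) were higher at all and 3.7% (2.69%) by 1.5-fold. Per1 and Cry1 differed by -0.21 and -0.10. The output median was 0.87 and the positive limb median -0.83, a gap of 1.70. Averaging all probe sets of each gene gave a gap of 1.0.

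The comparison of the array labelled GN+Water with Saline+Water asks what GN changed in mice drinking water, and it rests on both arrays that stand apart. Tef was 2.49-fold, Per2 2.14-fold and Dbp 2.04-fold lower on the array labelled GN+Water, and Clock was 2.17-fold higher. Genes at least 2-fold lower made up 4.42% of those past the filter and 5.06% of all, and genes at least 2-fold higher 10.3% and 7.81%. Arntl was 1.22-fold higher. Opposite to it were 6 of the 7 negative limb and output genes (all but Nr1d2, and 5 without Cry1), where 49.4% of genes past the filter and 57.1% of all genes were lower. The gap between the output and positive limb medians was -0.79, the reverse of the sign on captopril.

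Per2 and Clock in this comparison rest on a value that Saline+Water holds alone, and their second probe sets gave log2 differences of 0.084 and 0.17. Saline+Captopril can serve as another baseline, but it also differs in drug, so GN and captopril cannot be told apart against it. With it Per2 differed by 0.019 and Clock by 0.12. Dbp was 4.11-fold, Tef 1.88-fold, Per3 1.57-fold and Nr1d2 1.57-fold lower on the array labelled GN+Water, and Arntl was 1.43-fold higher. Nr1d2 thus changed sides with the baseline, and Dbp and Tef did not. Against that baseline the gap was -0.76.

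The comparison of Saline+Captopril with Saline+Water asks what the drug changed in uninflamed kidneys, and it also rests on Saline+Water. Nr1d2 was 2.31-fold, Dbp 2.01-fold and Clock 2.004-fold higher on Saline+Captopril and Per2 was 2.17-fold lower, against 6.43% of genes past the filter at least 2-fold higher and 2.08% lower (4.64% and 2.86% of all genes). Dbp, at 1.01, and Clock, at 1.003, lay just past the limit of 1 on the log2 scale, and the second probe sets gave 0.51 and 0.16. The second probe set of Nr1d2 gave 0.63, under 2-fold, and that of Per2 gave 0.71, the opposite sign, so that the average of the Per2 probe sets was -0.20. Arntl differed by -0.23, and 3 of the 7 negative limb and output genes (Dbp, Per3 and Nr1d2) were opposite to it, where 50.9% of genes past the filter and 42.5% of all genes were higher. The gap of -0.12 was the smallest of the 4 comparisons. Clock and Npas2 differed in opposite directions.

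**Figure D3:**
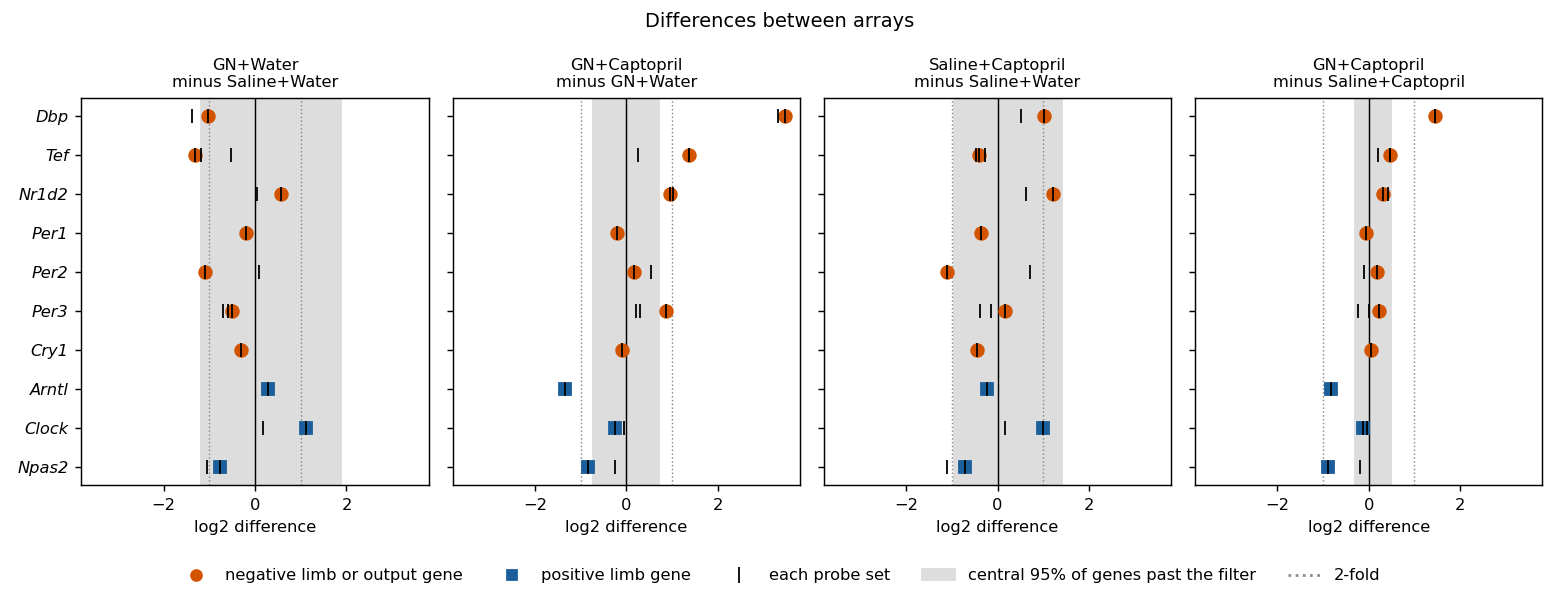
Log2 difference (x axis) of each gene (y axis) in the 4 comparisons. Orange circles are negative limb or output genes, blue squares positive limb genes, black ticks every probe set, dotted lines 2-fold, and the grey band the central 95% of genes past the filter. On captopril Dbp (1.44) and Arntl (-0.83) lie outside a band of -0.30 to 0.48, while in the pair of water arrays the band of -1.18 to 1.88 takes in most members.

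The pairs that share no array can be set side by side. The GN difference for Dbp was -1.03 on water and 1.44 on captopril, and that for Arntl was 0.29 and -0.83. The captopril difference for Dbp was 1.01 in saline and 3.48 in GN kidneys, for Tef -0.41 and 1.37, and for Arntl -0.23 and -1.35. Whether these differ beyond the variation between mice was not tested. Npas2 was lower in both pairs either way, at -0.78 and -0.89 for GN and at -0.72 and -0.83 for captopril.

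A list of further clock genes gave 10 with a value. Of these, 2 (Hlf and Rora, each in 1 probe set) were opposite to Arntl in all 6 array pairs and 3 in at least 5. Among genes past the filter the shares were 2.9% and 12.7%. Nr1d1 and Cry2 were opposite to Arntl in 4 pairs. Nr1d1, the REV-ERB alpha partner of Nr1d2, was at 8.20 on Saline+Water, 7.86 on Saline+Captopril, 8.01 on GN+Captopril and 7.14 on the array labelled GN+Water, a profile with the same lowest array as Dbp and Tef. Cry2, the second cryptochrome, was at 7.29, 6.86, 7.24 and 6.58. Hlf, which shares the D-box with Dbp and Tef, was at 9.30, 9.45, 9.58 and 8.91. On GN+Captopril relative to the array labelled GN+Water Nr1d1 was 1.83-fold, Hlf 1.59-fold and Cry2 1.58-fold higher.

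Nfil3, the repressor that competes with Dbp at D-boxes, was lowest on GN+Captopril, like Arntl and unlike Dbp. It was at 6.31 on Saline+Water, 5.87 on the array labelled GN+Water, 5.16 on Saline+Captopril and 4.38 on GN+Captopril, just over that array's limit of 4.36. On GN+Captopril it was 1.71-fold lower than on Saline+Captopril, and 2.79-fold lower relative to the array labelled GN+Water. Its mean was below the expression filter. Bhlhe41, an E-box repressor also below the filter, was highest on Saline+Water at 6.26 and at 5.28 to 5.59 elsewhere. Its relative Bhlhe40 ranged only from 9.30 to 9.60. Rora, an activator of Arntl through the RORE, ranged from 9.03 to 9.38. The casein kinase genes, whose products phosphorylate period proteins, lay at 10.4 to 10.9 (Csnk1d) and 7.20 to 7.34 (Csnk1e), and Timeless at 6.15 to 6.61. The ranges of Csnk1d (0.51) and Timeless (0.46) were close to the median of 0.51 for genes past the filter. Between the array labelled GN+Water and Saline+Water the 5 Csnk1d probe sets differed by -0.74 to 0.45, with both signs. In the 4 comparisons the list's median was -0.42 (GN on water), 0.17 (captopril in GN), -0.24 (captopril in saline) and 0.07 (GN on captopril). At least 2-fold higher were 0 of 10 in any, and 1, 1, 1 and 0 were lower. In the same order, 10.3%, 1.39%, 6.43% and 0.719% of genes past the filter were 2-fold higher. The shares 2-fold lower were 4.42%, 1.12%, 2.08% and 0.0244%.

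A second list held 12 genes known as clock-driven outputs in kidney or other tissues, 10 of them measured. Usp2, a deubiquitinase gene, was at 9.93 on Saline+Water, 10.25 on Saline+Captopril, 10.56 on GN+Captopril and 9.67 on the array labelled GN+Water. Lpin1, a phosphatidate phosphatase gene, was at 9.29, 9.46, 9.74 and 8.85. Usp2 and Lpin1, with Tspan4 and Pfkfb3, were ordered against Arntl in all 6 array pairs, 4 of 10 genes beside 2.9% of genes past the filter. For Usp2, Lpin1 and Pfkfb3 the second probe set did not keep the full order. The full order of Pfkfb3 rested on a log2 difference of only 0.0017 for captopril in saline, where its second probe set gave -1.37. On GN+Captopril relative to the array labelled GN+Water Lpin1 was 1.86-fold, Usp2 1.85-fold and Tspan4 1.52-fold higher. Sult1d1 did not follow that order, at 11.78 on Saline+Water and 12.72 to 12.88 elsewhere. Relative to Saline+Captopril 8 of the 10 were higher on GN+Captopril (47.8% of genes past the filter), with a median of 0.22 and 0 past 1.5-fold. In the other comparisons 6 (captopril in GN), 6 (GN on water) and 7 (captopril in saline) of the 10 were opposite to Arntl. The shares of genes past the filter with that sign were 50.7%, 49.4% and 50.9%.

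The tubular transport genes of that list did not follow Dbp. Scnn1a, a subunit of the epithelial sodium channel, was at 9.41, 8.78, 8.45 and 8.98 in the array order used above, and Avpr2, the vasopressin receptor, at 8.49, 8.35, 8.14 and 8.53, lowest on GN+Captopril like Arntl. Aqp2, the vasopressin-regulated water channel, was highest on the array labelled GN+Water at 10.93 against 9.91 to 10.30.

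**Figure D4:**
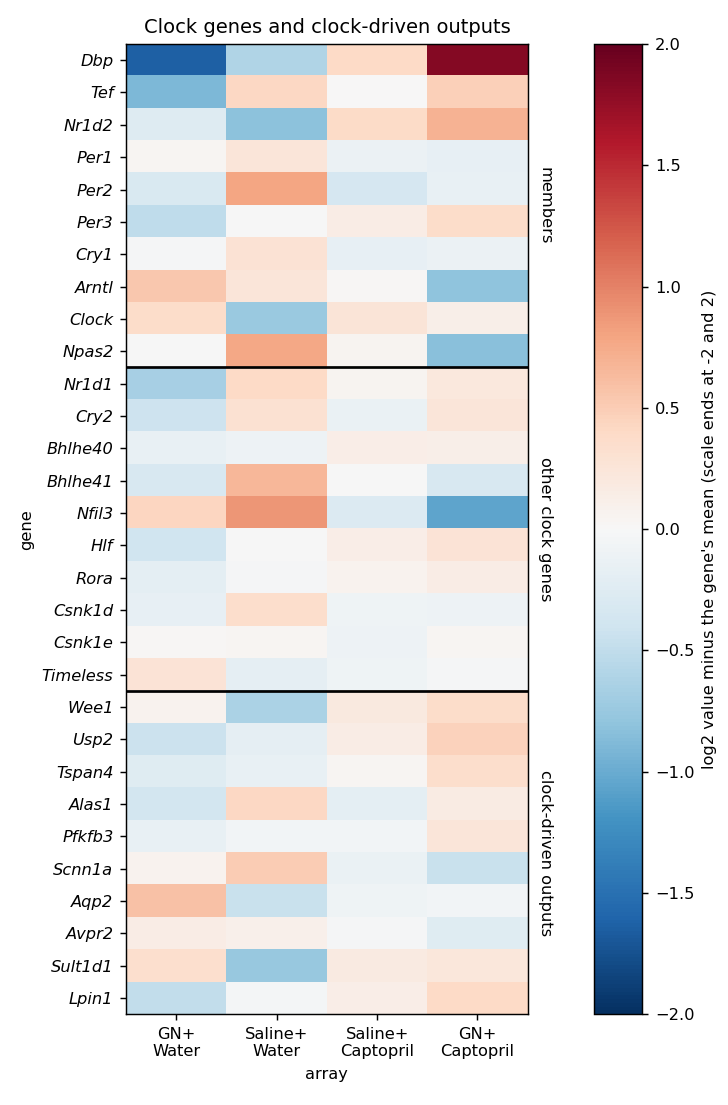
Log2 value of each gene minus its mean over the 4 arrays (colour, red above and blue below the mean, scale ending at -2 and 2) for the 10 members, 10 other clock genes and 10 clock-driven outputs (rows), with the arrays ordered by falling Arntl level (columns). Dbp runs from blue to red from left to right, and Arntl and Nfil3 from red to blue.

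Glucocorticoid-responsive and body temperature-responsive genes, which also follow daily rhythms, were counted in the same way. In all 6 array pairs 0 of 9 glucocorticoid-responsive and 2 of 6 body temperature-responsive genes were opposite to Arntl, beside 2.9% of genes past the filter. Of the 9 glucocorticoid-responsive genes, 3 were opposite to Arntl, and so higher, on GN+Captopril relative to the array labelled GN+Water. Of genes past the filter 50.7% were higher there. Sgk1, an aldosterone- and glucocorticoid-induced kinase gene, was highest on the array labelled GN+Water at 11.05 against 9.09 to 9.70, and Fkbp5, a glucocorticoid receptor co-chaperone gene, was at 9.59, 8.98, 9.25 and 8.81 in the array order above. Hspa1b, an inducible heat shock gene, was at 6.93 on Saline+Water, 10.07 on Saline+Captopril, 8.60 on GN+Captopril and 9.82 on the array labelled GN+Water, an order unlike that of Dbp or of Arntl. Hsph1, a heat shock chaperone gene, was at 10.09, 10.33, 10.61 and 9.99 in the array order above, the same order as Dbp, in both probe sets. Hsp90aa1, another chaperone gene, was at 11.75, 11.83, 11.93 and 11.56 and had that order in 1 of 3 probe sets.

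Among 8201 other genes past the filter, those whose centred profile lay closest to Dbp over the 4 arrays were Upp2, Cpe, Ces1g and Apoh. Their root mean square differences from it were 0.49, 0.51, 0.53 and 0.56 on the log2 scale, against a spread of 1.28 of Dbp around its own mean. Upp2, a uridine phosphorylase gene, was at 5.73 on Saline+Water, 6.66 on Saline+Captopril, 7.42 on GN+Captopril and 5.33 on the array labelled GN+Water. Closest to Arntl were Slc7a8, Cox8b, Itga6 and Slc16a1, at 0.17 to 0.22 against a spread of 0.50. Slc7a8, an amino acid transporter gene, was at 10.12, 9.78, 9.41 and 10.42. With 4 points many genes lie close to any profile, and these names describe likeness on these arrays alone.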

How the data were processed

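Biotinylated cRNA made from 6 µg of kidney RNA went onto Affymetrix arrays, as described per the labels' protocols. The authors' deposited table holds log2 values per probe set, as their range shows. GCOS and RMA are named per the submitters' processing notes, without version or role; background correction, normalisation and build: not given in the sources used here. Values were used as deposited, and medians lay between 6.93 and 6.99.

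Probe sets were named by the platform annotation, with symbols updated by Entrez ID for 20364 of the 20393 with 1 symbol. Another 691 had several symbols and 1606 none, and were not used. Python 3.11.15, numpy 2.4.6 and pandas 2.3.3 computed log2 differences in 4 comparisons, which leave 0 residual degrees of freedom. The counting code was checked on simulated data. The members and lists were chosen with earlier results of these data known. Named genes were all members, the other clock genes, up to 4 genes at least 2-fold apart in any comparison from each further list, and the 4 genes closest to Dbp and to Arntl. Usp2, Lpin1, Tspan4, Pfkfb3, Scnn1a, Avpr2, Fkbp5, Hsph1, Hsp90aa1, and the count of array orders, were chosen after their values were seen. Alternatives were median centring, quantile normalisation, other choices of probe set, filter and fold, and other baseline arrays. The number of arrays limits the precision.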

Additional observations from a re-analysis of the deposited data

Results flagged for a closer look

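Several members differed in opposite directions under the same contrast, each time between single arrays, and the difference was not tested. For GN minus saline the log2 differences on water and on captopril were -1.03 and 1.44 for Dbp, -1.32 and 0.47 for Tef, -1.10 and 0.18 for Per2, and -0.50 and 0.22 for Per3. They were 0.29 and -0.83 for Arntl, 1.12 and -0.13 for Clock, and -0.30 and 0.051 for Cry1, which lay near background. For captopril minus water the differences in saline and in GN kidneys were -0.41 and 1.37 for Tef, -1.12 and 0.16 for Per2, and 1.003 and -0.25 for Clock. The GN minus saline values on water and the captopril values in saline kidneys use Saline+Water, the array with high spike-in controls, and the GN minus saline values on water and the captopril values in GN kidneys use the array whose sex-linked transcripts go against its label. Every probe set of Dbp, Tef and Clock had the signs given here.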

How the results depend on the processing

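No paired analysis was possible because each group has 1 array. Of 81 values of the main results under an alternative, 60 stayed within 1.5 times with the same sign, 16 moved and 5 changed sign. Of 152 values for single members, 8 moved by over 1.5 times, and the other 144 either stayed within that or were under 1.5-fold both ways. Among the latter, Per3 went with probe sets averaged from 0.15 to -0.12 for captopril in saline and from 0.22 to -0.0072 for GN on captopril.

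Members at least 2-fold apart numbered 4 for GN on water, 3 for captopril in GN, 4 for captopril in saline and 1 for GN on captopril. Averaging probe sets gave 2 for GN on water and 0 for captopril in saline, and median centring and quantile normalisation each gave 2 for the latter. With Saline+Captopril as the baseline, which also differs in drug, the count for GN on water was 1. At 1.5-fold the counts were 6 for captopril in GN and 3 for GN on captopril.

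Genes opposite to Arntl numbered 6 (GN on water), 5 (captopril in GN) and 6 (GN on captopril). Counting only those at least 1.5-fold apart gave 3 for GN on water and 1 for GN on captopril. Members past the filter only, an alternative chosen after seeing the data, gave 3 of 4 in each of these comparisons.

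The output minus positive limb gap was 1.70 for captopril in GN and 1.05 for GN on captopril, or 1.0 and 0.59 with probe sets averaged. For GN on water it was -0.79, or -1.32 over members past the filter, and 1.11 when GN+Captopril replaced the array labelled GN+Water. Conversely, that array substituted for GN+Captopril turned 1.05 into -0.76. Each of these swaps mixes captopril with GN. For captopril in saline the gap of -0.12 had no stable sign, at 0.0075 after quantile normalisation, 0.025 with probe sets averaged, 0.13 without Cry1 (near background, chosen after seeing the data) and -0.059 over members past the filter. With shared probe sets left out, Arntl has no value, so the 2-fold counts and single members alone were recomputed, and Dbp for captopril in saline went from 1.01 to 0.51.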
